A study of Mus musculus with 16 samples.

Results

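RNA was compared between mouse cells with ERK signalling switched on for 4 h (4h) and cells that had the same induction followed by 2 h with a MEK inhibitor (rev). The comparison rests on 8 of the 16 libraries of the series, chosen by their group labels: 4 at rev and 4 at 4h. The cells were rosette-like stem cells (labelled RSC), a pluripotent state between naive and primed, of the mouse line CRAFR26. They carry a c-RAF kinase construct that 4-hydroxytamoxifen switches on, and RAF activates MEK, which activates ERK. Every group shares this construct. All cells were kept routinely in N2B27 with 2 µM IWP2, a Wnt secretion inhibitor, 1 µM of the MEK inhibitor PD0325901 and 1000 U/ml LIF, and all spent the 48 h before the experiment with 250 nM of the FGF receptor inhibitor PD173074 in place of the MEK inhibitor. The 4h cells then received 250 nM 4-hydroxytamoxifen for 4 h, and the rev cells the same for 4 h plus the MEK inhibitor for 2 h. The remaining groups, used below for context, were uninduced (0h) or induced for 2 h (2h). Each group has 2 libraries of clone 4 and 2 of clone 8, and nothing in the labels says that the libraries of a clone came from separate cultures, so p-values measure the spread between these libraries. Neither the dose of MEK inhibitor at rev nor whether tamoxifen stayed in the medium during these 2 h is stated. No group of longer induction without inhibitor was analysed here, so the inhibitor and the 2 h of further culture cannot be told apart.

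ERK is the last kinase of the RAS, RAF, MEK and ERK chain, and MEK inhibitors stop its activation. Active ERK switches on immediate-early genes, such as those of the EGR and AP-1 families, and then genes whose products restrain the pathway: Sprouty and Spred proteins act upstream on RAS and RAF, and dual-specificity phosphatases remove phosphate from MAP kinases. In mouse pluripotent cells, FGF and ERK signalling moves cells out of the naive state, and MEK inhibition together with LIF helps to hold naive factors such as Nanog and Klf4. Many of the mRNAs that ERK induces are short-lived, so that their levels can follow the kinase within hours.

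The 8 libraries held 4.31 to 9.99 M counts, of which 46.7% to 78.9% over the series fell on 8 features that each held over 1% of all counts. Outside these, 1.30 to 4.04 M counts remained, the fewest in rev clone 8 replicate 1, and 3 counts were worth 0.291 to 0.908 CPM (reads per gene scaled for library depth by the TMM method over the 12742 genes tested; a limit from counting error only). Clone was the largest axis of variation, with 50.97% of the variance of the 500 most variable genes. On the third component, with 8.57%, the 0h and 4h libraries scored positive and the 2h and rev libraries negative; the rev against 4h comparison crosses this split and cannot be recomputed within a side. The pluripotency genes Pou5f1 and Sox2 were expressed throughout, at 142.1 to 175.5 and 211.1 to 225.3 CPM at 4h and 121.1 to 159.9 and 209.7 to 226.2 CPM at rev. Summed over their lists, primitive endoderm markers stood at 3.32 to 5.07 CPM at 4h and 6.14 to 9.99 CPM at rev, streak markers at 3.42 to 11.2 and 4.84 to 6.69, neural markers at 5.93 to 22.8 and 5.43 to 6.27, trophoblast markers at 42.0 to 59.2 and 39.3 to 62.7, and fibroblast markers at 0.613 to 3.60 and 1.65 to 3.03 CPM. Sox17 had at most 2 counts in any of the 8 libraries. The part of other cells in the results was not tested.

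The 250 bases before the start of 3 genes are shown as examples of regulatory sequence upstream of genes that fell or rose: Dusp6 and Bmp4, among the largest falls, and Rhob, among the largest rises. They are from RefSeq on GRCm38.p6, 5′ to 3′ on the strand of the gene, at chr10:99262981-99263230 (plus strand), chr14:46390670-46390919 (minus strand) and chr12:8500010-8500259 (minus strand).
Dusp6: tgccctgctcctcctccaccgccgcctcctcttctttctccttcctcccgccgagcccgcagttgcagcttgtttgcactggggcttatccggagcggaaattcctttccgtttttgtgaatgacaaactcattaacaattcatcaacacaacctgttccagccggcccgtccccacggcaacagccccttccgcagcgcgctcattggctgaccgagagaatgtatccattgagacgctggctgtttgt
Bmp4: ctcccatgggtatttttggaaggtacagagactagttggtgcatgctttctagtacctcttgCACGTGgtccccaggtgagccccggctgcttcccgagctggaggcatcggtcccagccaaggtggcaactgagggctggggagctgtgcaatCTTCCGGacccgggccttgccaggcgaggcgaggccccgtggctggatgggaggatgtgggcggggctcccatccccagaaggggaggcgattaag
Rhob: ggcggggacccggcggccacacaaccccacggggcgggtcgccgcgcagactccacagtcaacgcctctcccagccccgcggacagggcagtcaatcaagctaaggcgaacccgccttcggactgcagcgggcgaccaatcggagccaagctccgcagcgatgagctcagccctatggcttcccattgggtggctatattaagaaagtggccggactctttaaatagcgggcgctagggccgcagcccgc
Capitals mark matches to 5 motifs searched on both strands: CCGGAAG for the core bound by ETS factors, TGANTCA for the AP-1 site, CACGTG for the E-box bound by MYC and its relatives, TATAAA for the TATA box, and the CArG box. No match overlapped another. Bmp4 held an E-box at 188 to 183 bases before the start and an ETS core, on the opposite strand, at 96 to 90 bases before it. Neither Dusp6 nor Rhob held a match. Over all 32817 promoters of the table, the same 250 bases held an E-box in 6.02%, an ETS core in 6.90%, AP-1 in 6.75%, the TATA motif in 12.4% and a CArG box in 1.47%. Only 476 of the 650 genes that fell and 443 of the 574 that rose have an entry, under the 80% needed to compare shares, so that check is void.

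After 2 h of MEK inhibitor, 24 of 71 feedback and early genes of ERK had fallen, Spry4 by as much as 6.41 on the log2 scale, and 8 had risen. Of 10 naive pluripotency genes 6 had risen and 2 had fallen, and in clone 8 the counts were 3 and 2. The keratin gene Krt8, Igf2 and the CDK inhibitor genes Cdkn1a and Cdkn1c had risen as well. Each of these was also called higher at 2h against 0h, without inhibitor. In all, 1224 of 12742 genes (9.61%) differed between rev and 4h at an adjusted p under 0.05, 650 of them lower at rev (5.10%) and 574 higher (4.50%). The falls were larger: 213 genes fell and 151 rose by at least 1 on the log2 scale, and 48 fell and 27 rose by at least 2. The 12 largest falls by the naming rule were in Spry4, Dusp6, Egr1, Id1, Snai3, Phlda1, Bmp4, Egr3, Soga3, Myc, Hs3st3b1 and Dusp4, and the 12 largest rises in Krt8, Spic, Igf2, Rhob, Cdkn1c, Kbtbd11, Msc, Mobp, Elavl3, Esx1, Tmem191c and Cdkn1a. The test was edgeR's quasi-likelihood test with clone as covariate and Benjamini-Hochberg adjustment, with the spread estimated from all 16 libraries. Fitted on the 8 libraries of 4h and rev alone, it called 888 genes, 480 lower and 408 higher. The count of 1224 rests on clone 4. It was 663 or 717 without 4h clone 4 replicate 1 or 2, and 712 or 642 without rev clone 4 replicate 1 or 2. It was 2610 when each combination of group and clone had its own mean. Scaling by library totals in place of TMM called 532 genes, 16% of them higher at rev against 46.9% with TMM. It moved the median change of all genes from 0.0026 to -0.20. All 24 named genes, picked for large changes in the same data, kept their call.

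**Figure D1:**
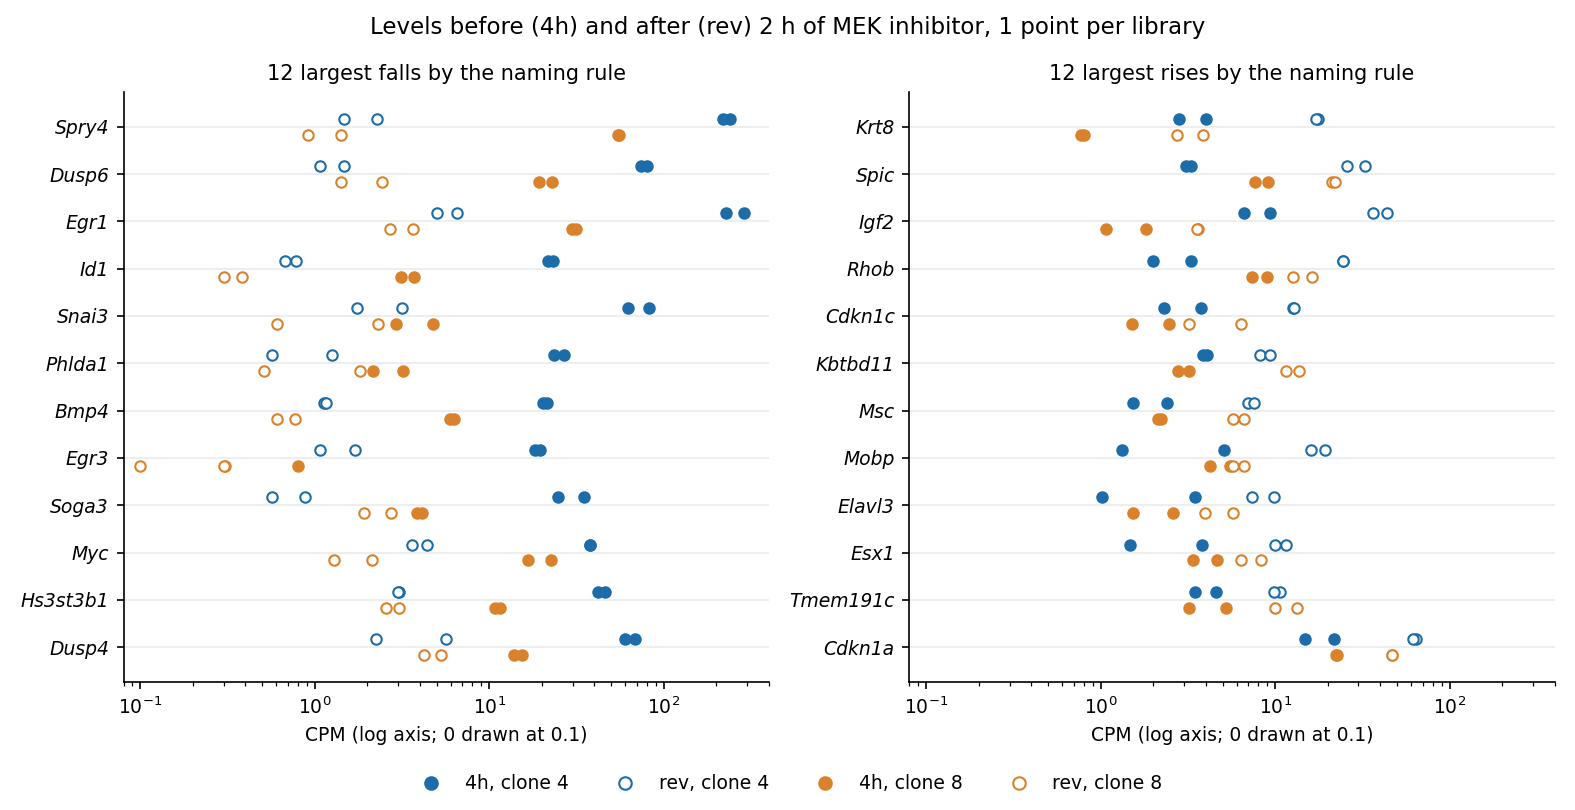
Level of each of the 24 named genes in CPM on a log axis, 1 point per library; filled points are 4h, open points rev, blue clone 4 and orange clone 8, and a value of 0 is drawn at the left end of the axis. In the left panel the open points lie to the left of the filled points of the same clone, with the widest gap for Spry4, and clone 8 starts from lower levels at 4h in all 12 genes.

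Most Sprouty and Spred genes fell. Of the 7 Sprouty and Spred genes, which encode inhibitors of RAS and RAF activation, 6 were tested, 5 fell and none rose (83.3% lower, against 5.10% of all genes), with a median change of -1.26. Values are given below in the order clone 4 replicates 1 and 2, then clone 8 replicates 1 and 2. Overlap between the groups is given per gene as a description, with no share over all genes beside it. The counts of each list are to be read beside 5.10% of all genes lower and 4.50% higher. Spry4 (ENSMUSG00000024427) stood at 218.1, 238.2, 55.0 and 54.4 CPM at 4h and at 2.26, 1.46, 0.908 and 1.41 CPM at rev. The groups were far apart in both clones, and the rev values lay near those of the 0h libraries, 0.999 to 3.45 CPM. The log2 change was -6.41 (SE 0.369, edgeR adjusted p 2.35e-09). Spry2 went from 63.1, 54.4, 33.1 and 29.6 to 11.6, 17.3, 8.78 and 12.5 CPM, a change of -1.79 (SE 0.157, adjusted p 8.17e-07), without overlap. Spry1, Spred1 and Spred2 fell by 1.27, 1.25 and 0.63 on the log2 scale, also without overlap between the groups. Spred3 did not pass the test (-0.87, adjusted p 0.0910).

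Among the 11 dual-specificity MAP kinase phosphatases, 4 fell (36.4%, against 5.10% of all genes) and 3 rose (27.3%, against 4.50%). Dusp6 (ENSMUSG00000019960, chromosome 10, 99263231 to 99267489, plus strand), a cytoplasmic ERK phosphatase and the gene of the first promoter above, stood at 80.0, 73.9, 22.8 and 19.3 CPM at 4h and at 1.47, 1.07, 2.42 and 1.41 CPM at rev. Its groups did not overlap, and the change was -5.03 (SE 0.412, edgeR adjusted p 3.55e-07). Dusp4, a nuclear MAP kinase phosphatase (chromosome 8, 34807297 to 34819894, plus strand), went from 68.8, 59.7, 15.4 and 13.8 to 5.65, 2.23, 4.24 and 5.25 CPM, a change of -3.11 (SE 0.482, adjusted p 3.68e-04). Dusp5 fell by 1.10 and Dusp2 by 2.07 on the log2 scale, both with overlapping groups: Dusp2 read 5.47 and 5.33 CPM in clone 4 at 4h but 0.603 and 0.613 CPM in clone 8, close to its 0.606 and 0.895 CPM at rev. The members that rose were Dusp8 (2.41), Dusp9 (0.66) and Dusp14 (0.84). Dusp8 rose at low levels in clone 4, from 0.667 and 1.02 to 3.73 and 4.07 CPM. In clone 8 it read 0 and 0 CPM at 4h and 0 and 0.384 CPM at rev. Dusp14 rose in clone 8, from 17.2 and 28.0 to 60.9 and 54.6 CPM, whereas in clone 4 it read 9.73 and 6.60 CPM at 4h and 8.13 and 7.95 CPM at rev. Dusp1, an immediate-early phosphatase gene, differed by only -0.09 (SE 0.160, adjusted p 0.771).

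In a list of 12 ETS transcription factor genes, 3 fell (25.0%, against 5.10% of all genes) and none rose. The list leaves out Spic and Elf3, ETS family genes described below, which rose by 2.10 and 1.14 on the log2 scale. Etv4, a PEA3-type ETS factor known as an FGF and ERK target, went from 39.7, 32.5, 19.6 and 18.1 to 2.71, 1.75, 3.94 and 6.27 CPM without overlap (-2.99, SE 0.401, edgeR adjusted p 1.00e-04). Its relatives Etv1 and Etv5 changed less, by -1.03 and -0.46, and Etv5 still stood at 108.7 to 142.3 CPM at rev. In a list of 10 genes used elsewhere as a transcriptional readout of MAP kinase output, 8 fell and 1 rose, the ephrin receptor gene Epha4 (0.86). Of the falls, only Epha2 (-0.84) is not also a member of the feedback and early gene lists described here. The remaining gene, the cyclin gene Ccnd1, did not pass (-0.74, edgeR adjusted p 0.115). The summed level of the 10 genes was 470.3 to 895.0 CPM at 4h and 279.8 to 312.5 CPM at rev, beside 226.5 to 291.3 CPM at 0h.

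Of 4 EGR and NAB genes tested, 2 fell, Egr1 and Egr3. Egr1 (ENSMUSG00000038418), a zinc finger factor, stood at 227.7, 289.8, 29.8 and 31.4 CPM at 4h and at 6.55, 5.04, 3.63 and 2.69 CPM at rev, a change of -4.82 (SE 0.356, edgeR adjusted p 7.49e-08). All rev libraries lay below all 4h libraries. Egr3 (chromosome 14, 70077203 to 70082614, plus strand) read 18.3, 19.6, 0.804 and 0.306 CPM at 4h and 1.69, 1.07, 0.303 and 0 CPM at rev, a fall of 3.64 on the log2 scale in which clone 8 held at most 8 counts in any library. The corepressor genes Nab1 and Nab2, which restrain EGR factors, did not pass over both clones (-0.54 and -0.04, adjusted p 0.294 and 0.952).

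AP-1 was mixed. Fosl1 fell by 2.34 (SE 0.414, adjusted p 0.00124), from 6.93, 6.35, 1.61 and 1.68 to 0.678, 0.873, 0.303 and 1.02 CPM, though 57.2% of its exon length is shared with a gene on the opposite strand. Junb fell by 0.94: in clone 4, 26.8 and 23.9 CPM became 6.32 and 6.98, whereas clone 8 read 9.65 and 9.04 at 4h and 10.6 and 11.1 at rev. Atf3, a stress-induced member, rose by 2.10 at low levels (0.306 to 1.27 CPM at 4h, 0.791 to 5.25 CPM at rev). Fos was already low at 4h, at 0.804 to 4.06 CPM, and read 0.908 to 1.46 CPM at rev (-0.64, SE 0.407, adjusted p 0.347). Jun was at 2.30 to 6.67 and 1.21 to 6.66 CPM (-0.29, adjusted p 0.684).

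Of 31 further immediate-early genes tested, 8 fell (25.8%, against 5.10% of all genes) and 4 rose (12.9%, against 4.50%). Phlda1 (chromosome 10, 111506286 to 111508645, plus strand) went from 26.7, 23.6, 3.22 and 2.14 to 0.565, 1.26, 1.82 and 0.512 CPM, a change of -3.77 (SE 0.533, edgeR adjusted p 1.56e-04), and shares 33.0% of its exon length with an opposite-strand gene. Vgf, which encodes a secreted neuropeptide precursor, fell by 2.27, the mRNA decay factor gene Zfp36l1 by 1.85 and the pseudokinase gene Trib1 by 1.82. Arc fell by 1.63, from 124.5, 125.7, 24.6 and 24.0 to 22.4, 22.3, 15.1 and 20.3 CPM. Tiparp fell alike in both clones (-1.70 in each; 32.9 to 45.5 CPM at 4h, 10.2 to 14.6 CPM at rev). Rhob, the gene of the third promoter above, rose by 1.78, and Plk2, Gadd45b and Btg2 by 0.68, 0.64 and 0.57. Over the 6 lists of feedback and early genes together, 24 of 71 tested genes fell (33.8%) and 8 rose (11.3%), with a median change of -0.36.

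**Figure D2:**
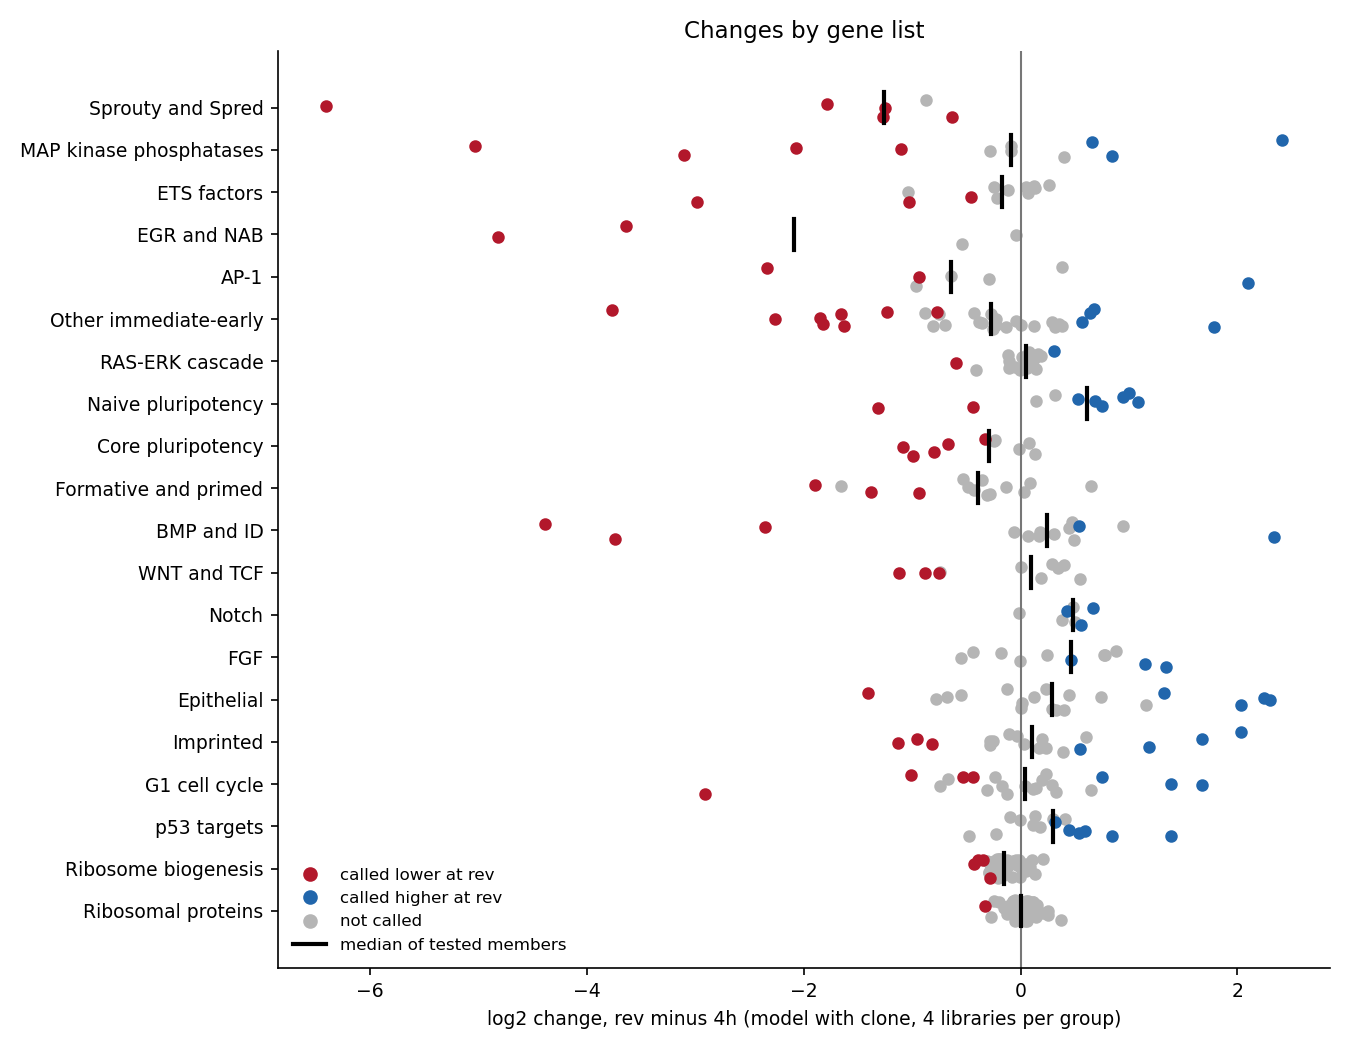
Log2 change from 4h to rev for the tested genes of 20 lists, 1 point per gene; red points fell, blue points rose, grey points did not pass the test, and black bars are list medians. The first 6 rows hold 24 of the falls, the naive row has 6 rises, and the ribosomal protein genes lie close to 0 with a median of -0.00124.

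ID genes and a BMP ligand gene also fell. Id1 (chromosome 2, 152736251 to 152737410, plus strand), an inhibitor of bHLH factors and a BMP target, went from 23.2, 21.6, 3.12 and 3.68 to 0.678, 0.776, 0.303 and 0.384 CPM, a change of -4.39 (SE 0.448, edgeR adjusted p 4.42e-06). Id3 fell by 2.36, from 11.3, 12.2, 9.05 and 7.50 to 1.69, 0.776, 2.72 and 3.07 CPM, and neither gene's groups overlapped. The BMP ligand gene Bmp4 (chromosome 14, 46383520 to 46390669, minus strand), the gene of the second promoter above, went from 21.3, 20.3, 5.93 and 6.28 to 1.13, 1.16, 0.606 and 0.768 CPM (-3.74, SE 0.347, adjusted p 1.47e-06). Of the 14 genes of that list tested, Msx2, a homeobox gene and BMP target, rose, from 0.80, 0.762, 0.503 and 1.23 to 4.29, 4.07, 5.15 and 3.58 CPM (2.34, SE 0.295), as did the signal transducer gene Smad1 (0.54). Id2 did not pass (0.49, adjusted p 0.277).

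Myc (chromosome 15, 61985391 to 61990374, plus strand), a growth regulator, stood at 37.6, 37.8, 16.7 and 22.5 CPM at 4h and at 3.61, 4.37, 2.12 and 1.28 CPM at rev. The change of -3.20 (SE 0.433, edgeR adjusted p 1.08e-04) was of similar size in the clones (-3.23 and -3.64). It was the only one of 11 MYC network genes tested to pass: Mycn, its close relative, read 62.5 to 65.3 CPM at 4h and 46.4 to 70.9 CPM at rev (-0.11, adjusted p 0.547). Of the other named falls, Hs3st3b1, a heparan sulfate sulfotransferase gene, went from 46.3, 41.9, 10.8 and 11.5 to 3.05, 3.01, 3.03 and 2.56 CPM, without overlap. Snai3, a Snail family gene, went from 82.3, 62.5, 2.92 and 4.75 to 3.16, 1.75, 0.606 and 2.30 CPM, with overlap only in that rev clone 4 replicate 1 exceeded 4h clone 8 replicate 1. Soga3 went from 34.7, 24.6, 4.12 and 3.83 to 0.565, 0.873, 2.72 and 1.92 CPM. The neural factor Pax6 fell by 2.2 on the log2 scale, from 21.7, 17.3, 3.32 and 3.98 to 3.28, 3.59, 1.51 and 1.15 CPM, with overlapping groups.

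The naive pluripotency genes mostly rose over both clones together. Of 10 tested, 6 rose (60.0%, against 4.50% of all genes) and 2 fell, with a median change of 0.612. By clone, 8 rose and 2 fell in clone 4 (median 0.943), and 3 rose and 2 fell in clone 8 (median 0.252). The change differed between the clones for 6 of the 10. Nanog read 111.3, 168.9, 404.2 and 467.9 CPM at 4h and 406.8, 432.0, 722.1 and 665.7 CPM at rev, a change of 1.08 (SE 0.164, edgeR adjusted p 3.08e-04). It was higher at rev in each clone, but clone 4 at rev was near clone 8 at 4h, so the pooled groups overlap. Klf4 went from 18, 27.2, 92.5 and 90.2 to 58.3, 64.4, 157.7 and 149.2 CPM (1.00, SE 0.181), and Prdm14 from 5.87, 8.89, 21.7 and 19.1 to 20, 21.8, 28.2 and 28.3 CPM (0.94, SE 0.217). Klf2, Tfcp2l1 and Tbx3 rose by 0.75, 0.69 and 0.53. With library totals as the scale, 2 of the 6 kept their call, and Prdm14, Tfcp2l1, Tbx3 and Klf2 did not. Klf5 went the other way without overlap, from 148.8, 155.2, 127.3 and 158.7 to 56.8, 44.8, 85.7 and 55.6 CPM (-1.32, SE 0.140, adjusted p 8.46e-06), and Nr0b1 fell by 0.44. Esrrb and Zfp42 did not pass (0.14 and 0.32, adjusted p 0.621 and 0.0631).

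Of 10 general pluripotency genes, 5 fell and none rose. Utf1 fell by 1.09, from 83.6, 91.2, 77.1 and 85.5 to 41.1, 31.8, 50.3 and 37.5 CPM, and Dppa4, Lin28a and Zfp281 fell by 0.99, 0.80 and 0.67. Pou5f1, Sox2 and Sall4, the factors at the base of the pluripotency network, did not pass (-0.25, -0.02 and 0.13). Among formative and primed genes, Pou3f1 fell by 1.38: in clone 4, 17.1 and 11.7 CPM became 3.16 and 2.04, whereas clone 8 read 5.43 and 4.29 at 4h and 5.45 and 4.86 at rev. The neural cadherin gene Cdh2 fell by 0.94, and Otx2 and Dnmt3b did not pass (-0.49 and -0.53, adjusted p 0.132 and 0.0941).

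Krt8 had the largest rise among the genes that met the naming rule. Krt8 (ENSMUSG00000049382, chromosome 15, 101996698 to 102004482, minus strand) read 4.00, 2.79, 0.804 and 0.766 CPM at 4h and 17.6, 17.2, 2.72 and 3.84 CPM at rev. It was higher at rev in each clone, although the clones differ so much in level that the groups overlap; the change was 2.24 (SE 0.320, edgeR adjusted p 1.70e-04). Its partner Krt18 rose by 1.32, from 8.80, 5.33, 1.21 and 0.919 to 18.6, 20.5, 2.42 and 2.05 CPM, and Krt19 and Krt7 by 2.30 and 2.03. Counts of keratins, Nanog and actins are uncertain, since processed copies in the genome may share their reads. Of the 19 epithelial genes tested, 4 rose in all, and the splicing regulator gene Esrp1 fell (-1.41).

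Imprinted growth genes were split, with 4 of 18 higher (22.2%, against 4.50% of all genes) and 3 lower (16.7%, against 5.10%). Igf2, a fetal growth factor (chromosome 7, 142650766 to 142666816, minus strand), went from 9.33, 6.60, 1.81 and 1.07 to 43.9, 36.5, 3.63 and 3.58 CPM. The change was 2.03 (SE 0.207, edgeR adjusted p 4.42e-06). The count of Igf2 is uncertain, since 62.8% of its exon length is shared with a gene model on the same strand. H19, its imprinted neighbour, rose by 1.18 and Peg10 by 0.55. Cdkn1c, an imprinted CDK inhibitor, rose by 1.67, from 3.73, 2.29, 1.51 and 2.45 to 12.6, 12.8, 6.36 and 3.20 CPM, with 30.7% of its exon length shared with an opposite-strand gene. Meg3, Rian and Mest fell (-1.13, -0.96 and -0.82). For Mest, 70.4 and 61.5 CPM became 24.3 and 23.9 in clone 4, against 19.4 and 18.4 at 4h and 17.3 and 21.5 at rev in clone 8.

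2 of the CDK inhibitor genes rose, Cdkn1a and Cdkn1c. Both were also called higher at 2h against 0h, by 0.72 and 1.62 on the log2 scale. Cdkn1a (chromosome 17, 29090976 to 29100727, plus strand), which encodes the CDK inhibitor p21, went from 14.9, 21.8, 22.5 and 22.2 to 64.2, 61.6, 46.6 and 46.8 CPM, without overlap (1.39, SE 0.173, edgeR adjusted p 4.62e-05). Of 15 p53 target genes tested, 6 rose (40.0%, against 4.50% of all genes) and none fell, with a median of 0.303. At 2h against 0h, 8 of the 15 were called higher and 1 lower, with a median of 0.332. Beside Cdkn1a, the rises at rev were in Sesn1 (0.84), Phlda3 (0.59), Mdm2 (0.54), Ccng1 (0.45) and Zmat3 (0.32). Cdkn1a alone kept its call with library totals. Of 21 G1 genes tested, Cdkn1c, Cdkn1a and Rb1 (0.75) rose, and Ccnd2, Cdk6, E2f4 and Ccnd3 fell (-2.91, -1.01, -0.53 and -0.44). The cyclin gene Ccnd2 read 34.0 and 29.7 CPM in clone 4 at 4h and 2.48 and 1.55 at rev, but 1.81 and 1.84 in clone 8 at 4h and 0.908 and 2.05 at rev. Cdk6, its kinase partner, went from 8.67, 11.2, 9.85 and 10.1 to 3.73, 4.85, 6.36 and 4.86 CPM, without overlap.

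The remaining named rises were of mixed function. Spic, an ETS family gene, went from 3.07, 3.30, 7.64 and 9.04 to 25.9, 32.6, 21.2 and 22.0 CPM, without overlap, a change of 2.10 (SE 0.237, edgeR adjusted p 1.59e-05). Its 4 rev libraries also lay above its 0h libraries, at 12.6 to 15.1 CPM. Rhob, a small GTPase gene (chromosome 12, 8497661 to 8500009, minus strand), went from 2.00, 3.30, 8.95 and 7.35 to 24.3, 24.5, 12.7 and 16.2 CPM. Msc, a bHLH factor gene, went from 2.40, 1.52, 2.21 and 2.14 to 7.0, 7.57, 6.66 and 5.76 CPM. Kbtbd11 rose by 1.61, Tmem191c by 1.41, the homeobox gene Esx1 by 1.48 and the RNA-binding protein gene Elavl3 by 1.50. The myelin gene Mobp rose by 1.53. None of these genes had overlapping groups, but the rise of Mobp was in clone 4. In clone 8 Mobp read 4.22 and 5.51 CPM at 4h and 6.66 and 5.76 CPM at rev (0.35, edgeR adjusted p 0.633).

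Ligand and receptor genes of other pathways moved in part. Fgf4, the main FGF ligand of pluripotent cells, rose by 1.34, from 56.1, 82.0, 143.5 and 136.5 to 246.9, 260.3, 266.4 and 270.4 CPM (SE 0.182, edgeR adjusted p 1.08e-04). The rev libraries of the 2 clones were level, while at 4h clone 4 was the lower. Of the 11 FGF genes tested, Fgfrl1 (1.15) and Fgfr1 (0.46) rose too and none fell. Notch1, Jag1 and Notch2 rose by 0.67, 0.56 and 0.43, of 7 Notch genes tested, and all 3 failed the test with library totals. In the Nodal list of 17, Pmepa1 and Nodal rose (1.16 and 0.85) and Acvr1b, Foxh1 and Tdgf1 fell (-0.92, -0.46 and -0.33). Lef1, Tcf7l2 and Tcf7, of 10 Wnt genes tested, fell by 1.12, 0.88 and 0.75 on the log2 scale, and Tcf7l2 read 16.4 to 18.2 CPM at 4h and 17.7 to 21.8 CPM at rev in clone 8. Socs3 and Pim3 rose (0.54 each) and Socs2 fell (-0.90) among 12 LIF and STAT3 genes.

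Calls in housekeeping and metabolic lists are to be read beside 9.61% of all genes called in either direction. The shares of ribosome biogenesis, sterol and lipid, and histone genes lay near that value. Whether any list differed from all genes was not tested. Of 75 ribosomal protein genes tested 1 fell and none rose. Among 40 ribosome biogenesis genes 4 fell and none rose, with a median of -0.156, and 2 of 12 Polycomb genes fell, Phf19 by 1.01 and Rbbp4 by 0.27. Of 25 ATF4 targets 4 fell and 1 rose (Ddit4, 0.69), of 13 chaperone and ER stress genes 3 fell, led by Xbp1 (-1.02), of 30 glycolysis genes 4 fell and 3 rose, and of 32 sterol and lipid genes 2 fell and 2 rose. Among 51 histone genes tested 4 rose by 0.32 to 0.61 and none fell. All 4 calls were lost with library totals, and 21 histone genes rose in clone 4 against 1 in clone 8. Ndrg1, a hypoxia-responsive gene of the glycolysis list, rose by 1.15, from 4.27, 5.59, 4.42 and 5.36 to 15.2, 12.9, 6.36 and 8.70 CPM.

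Smaller lists gave scattered calls. Of 5 genes of epithelial to mesenchymal transition tested, the repressor gene Snai1 rose (1.98), and Snai3 and the intermediate filament gene Vim fell (-3.89 and -0.99). Of 17 YAP and SRF targets tested, Amotl2 rose (0.98) and Actb fell (-0.41). Of 11 polarity and rosette genes tested, Cgn, for a tight junction protein, and the laminin gene Lama1 rose (0.83 and 0.73). Among lineage markers, the endoderm gene Dab2 rose by 2.17, from 0.533, 0.762, 0.201 and 0.306 to 1.69, 2.81, 1.21 and 1.54 CPM, the streak gene Gsc rose by 1.64 and the streak gene Evx1 fell by 1.24 on the log2 scale.

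Where the named changes differed between the clones, they were larger in clone 4. In the test of the difference itself, 1681 of 12742 genes (13.2%) differed between the clones in their change from 4h to rev, 348 of them among the 1224 that passed over both clones. Of the 12 named falls 8 differed, each with the smaller fall in clone 8, and of the 12 named rises 5 differed, each with the smaller rise in clone 8. Spry4 fell by 6.95 on the log2 scale in clone 4 and by 5.43 in clone 8, while Soga3 stood at -5.35 and -0.88. The count of 1681 fell to 727 without 4h clone 4 replicate 1 and to 984 without rev clone 4 replicate 2. With each clone tested by itself, 3142 genes passed for clone 4 and 824 for clone 8, and 170 of the 650 falls and 153 of the 574 rises were called in both. Between the replicates of clone 8, chi-square per degree of freedom, at library-total scale, was 33.969 at 4h and 64.571 at rev. For clone 4 it was 6.545 and 3.968. Rev clone 8 replicate 1 also had the fewest counts outside the 8 abundant features, at 1.30 M. The part of these differences in the 3142 and 824 calls was not tested. All 12 named falls and 12 rises were called in clone 4 alone, against 8 and 9 in clone 8, where Egr3 was too low to be tested.

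**Figure D3:**
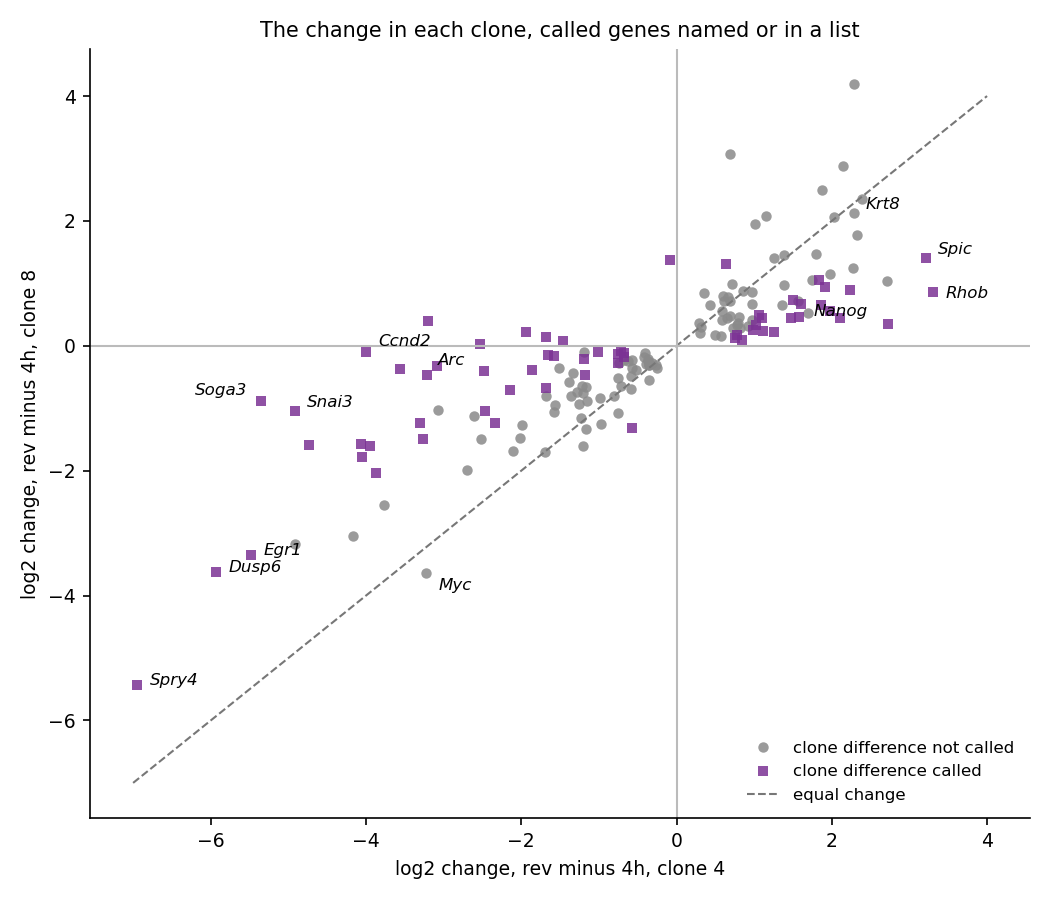
Log2 change from 4h to rev in clone 4 (x axis) and clone 8 (y axis) for the 163 called genes that are named or in a list; purple squares mark the 62 whose change differed between the clones, and the dashed line marks equal change. Spry4, Dusp6, Egr1, Snai3 and Soga3 lie above the line on the left, with a smaller fall in clone 8, and Myc and Krt8 lie near it.

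Some genes changed in opposite directions. Lefty2, which encodes a Nodal antagonist (chromosome 1, 180893108 to 180899103, plus strand), read 1.73 and 8.38 CPM in clone 4 at 4h and 69.6 and 51.3 CPM at rev, but 73.3 and 80.1 CPM in clone 8 at 4h and 26.6 and 29.6 CPM at rev. It rose by 3.87 in clone 4 (SE 0.259) and fell by 1.43 in clone 8 (SE 0.182), and over both clones it did not pass (0.57, edgeR adjusted p 0.650). Lefty1, its neighbour and close paralog, rose by 4.85 in clone 4, from 0.933 and 1.27 to 32.9 and 28.9 CPM, against -0.64 in clone 8 (adjusted p 0.106), and reads of the pair may be shared. Among 630 tested list members outside the named genes, 11 were called in opposite directions, 8 of them lower in clone 4 and higher in clone 8. These 8 were Nab1, Nab2, Chac1, the desmosome gene Pkp2, the membrane protein gene Emp1 and the cytoskeletal and SRF or YAP target genes Cavin1, Ccn1 and Actg1. Cavin1, for caveolae, went from 141.6 and 99.3 to 36.5 and 39.7 CPM in clone 4 and from 7.44 and 5.51 to 14.5 and 13.9 CPM in clone 8. The genes of this paragraph were chosen after their values were seen.

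The 2 h induction comparison (2h against 0h) shares no library with rev against 4h and gives the change of the same genes at onset. Both comparisons cross the third component in the same direction, from positive to negative scores, and its part in the overlaps was not tested. The more a gene had risen at 2h, the more often it fell at rev. Of 58 genes raised by at least 2 on the log2 scale at 2h, 22 fell at rev (37.9%) and 8 rose (13.8%). The falling share was 17.6% of the 165 genes raised by 1 to 2, 10.2% of the 403 raised by 0.5 to 1 and 3.77% of the 583 raised by less, beside 5.10% of all genes. In these 3 bins more genes rose than fell at rev: 18.2%, 15.4% and 5.32% rose, beside 4.50% of all genes, and the median changes were 0.350, 0.151 and 0.0673, against -0.563 in the top bin. Over all sizes, 1209 genes rose at 2h (9.49%) and 953 fell (7.48%), and 9.43% of the first and 9.23% of the second fell at rev. In the other direction, 131 genes rose in both comparisons, 10.8% of those raised at 2h and 22.8% of those raised at rev, and 37 fell at 2h and rose at rev, 3.88% and 6.45%. These overlaps depend on the scaling and on single libraries. With library totals the 131 genes became 18, the 88 that fell in both became 13 and the 37 became 3. The count of 37 was 23 without 0h or 2h clone 4 replicate 1, 20 without 2h clone 8 replicate 2, 24 or 19 without 4h clone 4 replicate 1 or 2, 21 or 18 without rev clone 4 replicate 1 or 2, and 66 without 4h clone 8 replicate 1. The 131 genes became 84 without 4h clone 4 replicate 2 and 86 or 69 without rev clone 4 replicate 1 or 2. The 88 became 53 without 0h clone 4 replicate 1, 54 or 52 without 4h clone 4 replicate 1 or 2, and 40 or 39 without rev clone 4 replicate 1 or 2.

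**Figure D4:**
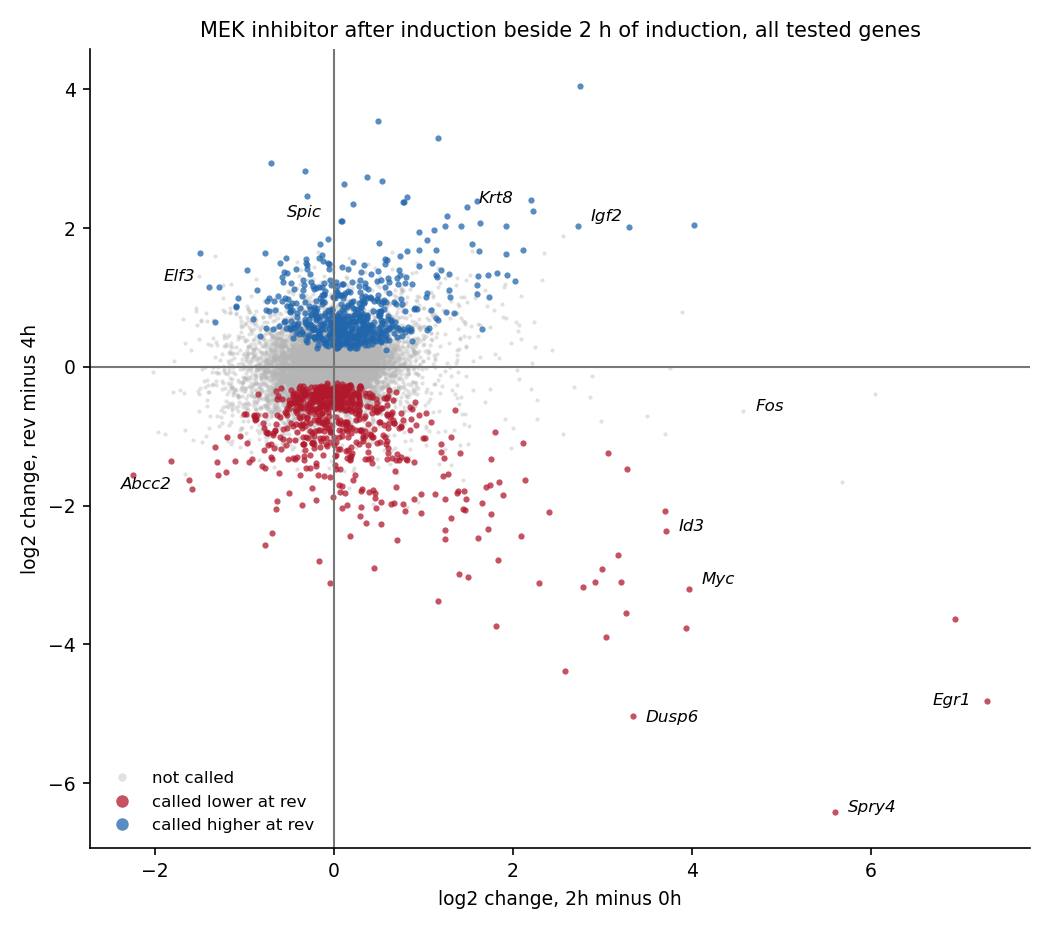
Log2 change from 0h to 2h (x axis) and from 4h to rev (y axis) for all 12742 tested genes, 1 point per gene; red fell at rev, blue rose at rev, grey did not pass. Spry4, Dusp6, Egr1 and Myc lie at the lower right, Igf2 and Krt8 at the upper right, and Fos, raised by 4.58 at 2h, was grey at rev.

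Among the 22 genes strongly raised at 2h and lowered at rev were all 12 named falls except Bmp4, and also Trh, Plaur, Nefm, Nrp2, Id3 and Slc39a14. Slc39a14, a zinc transporter gene, read 4.00 to 9.05 CPM at 0h, 32.2 to 46.9 at 2h, 35.7 to 87.9 at 4h and 11.8 to 15.1 at rev, a change of -2.10 at rev (SE 0.235, edgeR adjusted p 1.55e-05). The thyrotropin-releasing hormone gene Trh went from 55.6, 66.8, 17.5 and 20.8 CPM at 4h to 7.23, 3.40, 3.63 and 3.45 CPM at rev (-3.10, SE 0.286). Some genes were high at 2h and again at rev, with lower values at 4h between. Krt8 read 12.7, 17.0, 1.90 and 1.61 CPM at 2h, in clone 4 above its values at 0h (1.60 and 2.27) and at 4h. Igf2 read 39.8, 44.8, 4.10 and 4.14 CPM at 2h, close to 43.9, 36.5, 3.63 and 3.58 at rev, against 4.20, 6.52, 1.14 and 0.718 at 0h.

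**Figure D5:**
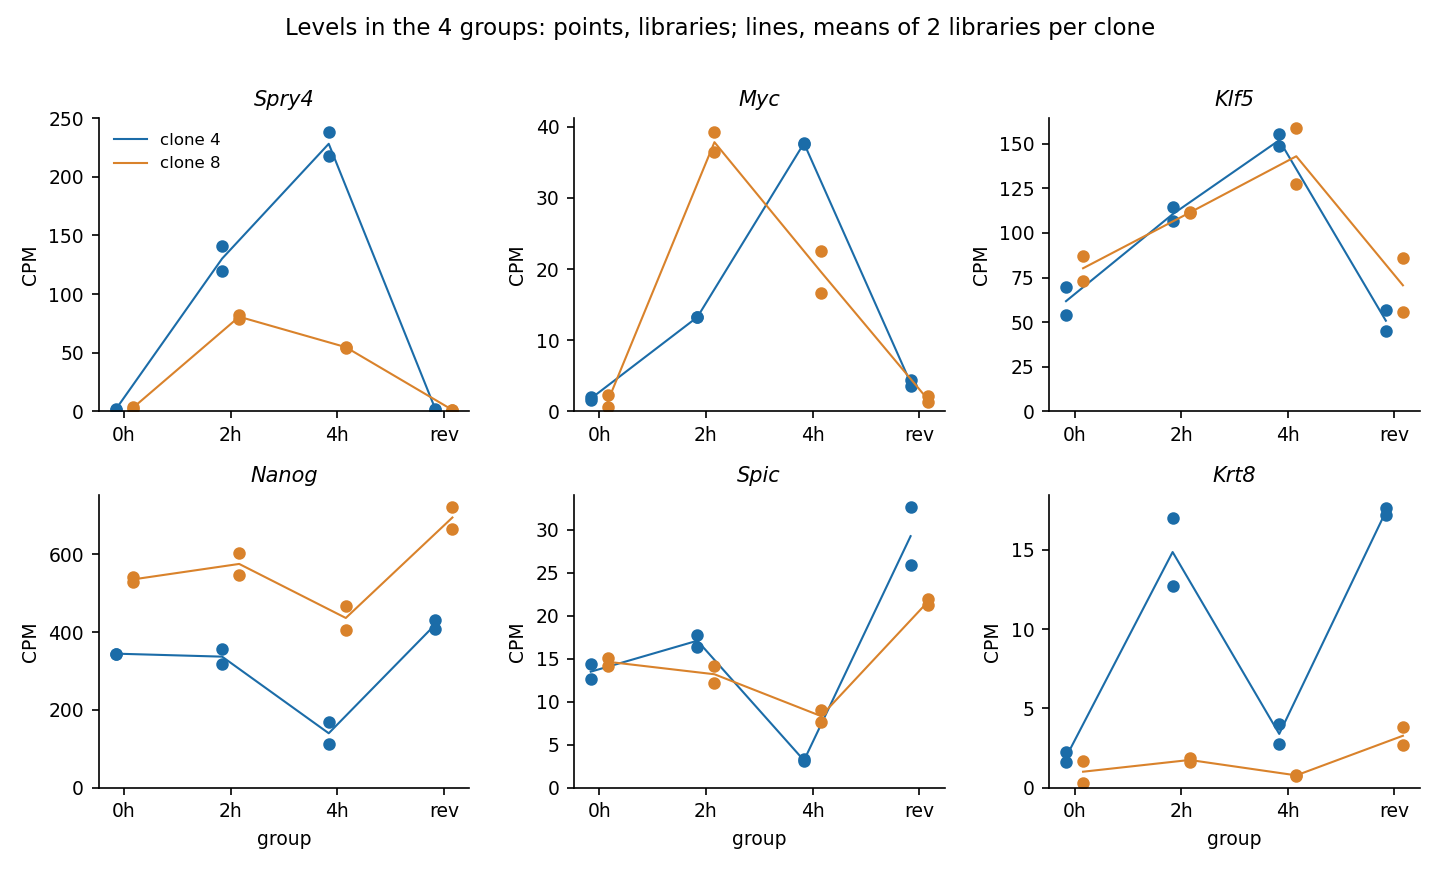
CPM of 6 genes in the 4 groups; points are libraries, lines join the means of 2 libraries per clone, blue clone 4 and orange clone 8. Spry4, Myc and Klf5 are higher at 2h and 4h than at rev, Nanog and Spic are lowest at 4h, and Krt8 in clone 4 is high at 2h and rev.

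Others fell at 2h and rose at rev, or fell in both. Elf3, an epithelial ETS factor gene, read 31.5 to 39.0 CPM at 0h and 10.6 to 17.7 CPM at 2h, then 8.00, 9.14, 19.7 and 17.0 CPM at 4h and 37.2, 35.3, 24.8 and 25.2 CPM at rev (1.14, SE 0.224, edgeR adjusted p 0.00268). Rgma, a BMP coreceptor gene, rose by 1.15 at rev, from 1.87, 3.30, 6.33 and 4.90 to 9.26, 8.15, 9.99 and 8.44 CPM, after 6.99 to 9.25 CPM at 0h and 2.46 to 4.84 CPM at 2h. The antiproliferative gene Tob1 rose by 0.88. Abcc2, a transporter gene, fell in both comparisons (-1.59 at 2h and -1.75 at rev): it went from 33.1, 27.4, 4.22 and 4.44 to 8.24, 7.18, 0.606 and 2.30 CPM between 4h and rev. Late genes, not called at 2h, fell at rev as well, such as Exoc3l, from 23.9, 23.9, 7.74 and 8.12 to 3.05, 1.84, 3.94 and 3.07 CPM (-2.43, SE 0.329), and Pcdh1, a protocadherin gene (-2.90, SE 0.461).

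Gene structure is given as a description. Protein-coding genes that fell had a median span of 24.9 kb, the same as all tested genes, and those that rose 32.2 kb. Among genes that changed by at least 1 on the log2 scale the medians were 18.7 and 18.6 kb. Single-exon genes made up 1.17% of the falls, 4.02% of the rises and 2.11% of all. Genes are not replicates, and no test was made of these features.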

How the data were processed

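The authors deposited raw read counts per gene for 16 libraries made from rRNA-depleted total RNA with NEBNext Ultra II, per the labels' protocols. The submitters' processing notes name bcl2fastq 2.19.1, STAR 2.5.3a and the build mm10, with no role given for each. The counting program, annotation and strand setting are not given in the sources used here. Of 52636 gene IDs, 52489 matched GENCODE M21, which gave symbols and coordinates on GRCm38.

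Libraries were grouped by their labels into 0h, 2h, 4h and rev, with clone from the labels. Genes were filtered with edgeR 4.0.16 (filterByExpr by group, minimum count 10), scaled by TMM and fitted with edgeR's quasi-likelihood model of group and clone over all 16 libraries, in R 4.3.3. P-values were adjusted by Benjamini-Hochberg over 12742 genes, and genes under 0.05 were called. CPM values are relative to the TMM-scaled sum over tested genes. Changes within a clone, and their difference, came from a second fit with a mean for each of the 8 pairings of group and clone. The named genes are the 12 largest falls and 12 largest rises among called genes with a mean count of at least 50 that changed the same way in all 4 pairs of libraries, leaving out predicted genes. Other genes come from functional lists, or from the genes at the extremes of the 2 h comparison, chosen after their values were seen. The members and lists were chosen with earlier results of these data known. The test was tried on data simulated for rev against 4h (12489 genes). The changed genes had a mean of at least 50 counts and the same change in both clones. Of these, 43 of 67 changed 1.5-fold, 65 of 67 changed 2-fold and 66 of 66 changed 4-fold were called. So were 14 of 12289 unchanged genes. The rates do not cover changed genes with fewer counts or with a clone difference. Alternatives covered scaling, filters, DESeq2 1.42.0, covariates, single clones, thresholds and each library left out. Promoter sequences are from RefSeq. Some genes are not reported here.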

Additional observations from a re-analysis of the deposited data

Results flagged for a closer look

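Among the 24 named genes, 13 changed by different amounts in the clones (edgeR's quasi-likelihood test of the difference, adjusted over all genes). The difference, clone 8 minus clone 4 of the log2 change, was 1.52 for Spry4, 2.31 for Dusp6, 2.13 for Egr1, 3.88 for Snai3, 3.14 for Phlda1, 4.47 for Soga3, 1.84 for Hs3st3b1 and 2.5 for Dusp4, all falls that were smaller in clone 8. It was -1.82 for Spic, -2.44 for Rhob, -2.37 for Mobp, -1.33 for Esx1 and -0.77 for Cdkn1a, all rises that were smaller in clone 8. Over all genes, 1681 differed.

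The 11 listed genes called in opposite directions in the clones were flagged for the same difference. It was 4.53 for Emp1, 2.77 for Cavin1, 2.48 for Chac1, 1.98 for Nab1, 1.70 for Ccn1, 1.40 for Nab2, 1.12 for Actg1 and 1.09 for Pkp2, which fell in clone 4 and rose in clone 8. It was -5.29 for Lefty2, -2.11 for Pdk1 and -1.10 for Mga, which rose in clone 4 and fell in clone 8. Pdk1, a mitochondrial kinase gene, read 3.47 and 7.11 CPM in clone 4 and 19.8 and 24.5 CPM in clone 8 at 4h, and 9.12 to 10.3 CPM in all 4 libraries at rev.

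A single library stood apart in 2 of 48 groups of 4 tested, where chance flags about 1 in 20. Hs3st3b1 was lowest in rev clone 8 replicate 2, at 1.49 log2 CPM, and Cdkn1a was lowest in 4h clone 4 replicate 1, at 3.92 log2 CPM.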

How the results depend on the processing

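All 24 named genes kept their direction and call under RLE size factors, library totals, DESeq2, no filter, 8 combinations of group and clone, and with each library left out. They were named for large changes in these same data, so keeping the call is not independent support. Without a clone covariate 4 of them lost the call, Egr3, Krt8, Igf2 and Cdkn1c, and 6 did in clone 8 alone. In clone 4 alone Dusp14 stood at -0.07, and in clone 8 alone Junb stood at 0.22, Pou3f1 at 0.02, Tcf7l2 at 0.13 and Mest at 0.08, each opposite in sign to both clones together; the cause was not tested. Replicate numbers shared no deviation beyond clone: same-numbered libraries correlated at 0.3081 on average, other-numbered ones of the clone at 0.3529, and at -0.076 once clone was removed. With a replicate block of clone and number, 912 genes were called in place of 1224, all 24 named genes kept their call, and the overlaps with the genes that fell at 2h went from 88 to 52 and from 37 to 23. In the following, values in order are all calls, higher calls and lower calls. They were 532, 85 and 447 with library totals, 251, 95 and 156 without a clone covariate, 2610, 1294 and 1316 with 8 combinations, 3142, 1636 and 1506 in clone 4 alone, 494, 211 and 283 at an adjusted p under 0.01, and 364, 151 and 213 with a change of at least 1; lower calls were 391 in clone 8 alone. Leaving out each library gave 642 to 1493, 298 to 706 and 344 to 787. The 2 h overlaps follow in the order lower and raised at 2h (114), higher and raised (131), lower and lowered (88), higher and lowered (37). No filter gave 194 for the first, 210 for the second and 60 for the last; library totals 18, 13 and 3 for the last 3; no clone covariate 34, 16, 15 and 3; 8 combinations 270, 384, 278 and 166; clone 4 alone 218, 482, 250 and 90; clone 8 alone 73 for the first and 22 for the last; an adjusted p under 0.01 55, 43, 22 and 7; a change of at least 1 47, 30, 9 and 3; and each library left out 84 to 136, 69 to 134, 39 to 91 and 18 to 66. The 1681 genes with a clone difference became 999 with DESeq2, 852 at an adjusted p under 0.01, 798 with a difference of at least 1, and 727 to 1794 with each library left out. Naive genes that rose went from 6 to 2 with library totals, to 1 without a clone covariate, to 1 with a change of at least 1, and to 4 to 7 with each library left out. The 24 feedback and early genes that fell became 13 without a clone covariate, 38 in clone 4 alone, 12 in clone 8 alone and 16 to 26 with each library left out. In rev clone 8 replicate 1, 3 counts are worth 0.908 CPM, which limits genes near that level.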
